A study of Mus musculus with 4 samples.

Results

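The immediate early genes Fos, Fosb, Jun, Junb, Egr1, Egr2, Egr3, Ier2, Atf3 and Arc were followed through 4 RNA-seq libraries of mouse shoulder capsule cells. They were taken by gene symbol from a gene table of 16416 genes, and all 10 were found, each in 1 row. The libraries came from cells named synovial fibroblasts in the labels, grown out of the shoulder joint capsule of mice 1 week after immobilization, cultured in DMEM with serum and used at passage 2. Wild-type cells were from C57BL6/J mice and were not transfected. Knockout cells (miR-26a -/-) were sequenced untransfected, after 24 h with 10 nM of the Silencer Negative Control siRNA, and after 24 h with 10 nM of a double-stranded miR-26a mimic. The mimic and negative-control libraries are therefore also knockout libraries. The labels state neither how many mice were used nor their age, nor the strain background of the knockout. MicroRNAs were not measured here, so the loss of miR-26a itself is not checked. Since each group is a single library, differences have no replicate check and no p-value is given. All intervals in parentheses are 95% and cover counting error only, with no variation between cultures. They treat sequenced reads as independent molecules, which reads are not, and so can be too narrow.

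Immediate early genes are switched on within minutes by serum, growth factors, stretch or stress, from factors already present in the cell, and their transcripts are short-lived. Kinases of the ERK pathway act on serum response factor and its ETS partners at CArG boxes, and cAMP and calcium signals act on CREB at cAMP response elements. Fos and Jun proteins pair through leucine zippers into the AP-1 factor, EGR proteins bind GC-rich DNA through zinc fingers, and both kinds of factor control genes of growth, inflammation and matrix turnover in fibroblasts. MicroRNAs pair through their seed with sites in untranslated 3' ends (3' UTRs) and usually lower the transcript.

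The sequence of miR-26a is shown because the knockout is named for it and the mimic supplies it, with the seed (bases 2 to 8) in capitals. It is encoded by Mir26a-1 on chromosome 9 and Mir26a-2 on chromosome 10, and the labels do not say whether 1 or both were deleted. Further, the guide strand given in the labels is identical to it. MiR-26b, from chromosome 1, has the same seed. Both are RefSeq entries on GRCm38.p6.
miR-26a-5p: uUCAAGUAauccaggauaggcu
miR-26b-5p: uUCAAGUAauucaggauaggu
The complement of this seed, TACTTGA, was found in none of the longest annotated 3' UTRs of the 10 immediate early genes (GENCODE M21), against 1674 of 15772 other genes, 10.6%.

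Promoters were found in RefSeq for 6 of the 10 genes, Fos, Fosb, Jun, Junb, Egr2 and Atf3, as windows from 250 bases before to 50 bases after the annotated start (GRCm38.p6). The windows of Fos, Fosb and Egr2 are shown. These are the genes of the Fos and EGR families whose own scaled counts were higher in the mimic library than in any other. For Fos and Fosb the difference from wild type was within counting error, and on TPM Fos was higher in wild type. Capitals mark CArG boxes, the core TGACG of the cAMP response element or its complement CGTCA, and the TATA word TATAA on the strand of the gene.
Fos, chr12:85473640-85473939, plus strand: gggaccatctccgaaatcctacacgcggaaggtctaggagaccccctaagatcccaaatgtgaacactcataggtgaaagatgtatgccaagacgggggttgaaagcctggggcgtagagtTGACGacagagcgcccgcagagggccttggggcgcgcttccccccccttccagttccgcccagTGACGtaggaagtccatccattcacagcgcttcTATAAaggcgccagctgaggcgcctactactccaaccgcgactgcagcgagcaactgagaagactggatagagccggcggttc
Fosb, chr7:19309996-19310295, minus strand: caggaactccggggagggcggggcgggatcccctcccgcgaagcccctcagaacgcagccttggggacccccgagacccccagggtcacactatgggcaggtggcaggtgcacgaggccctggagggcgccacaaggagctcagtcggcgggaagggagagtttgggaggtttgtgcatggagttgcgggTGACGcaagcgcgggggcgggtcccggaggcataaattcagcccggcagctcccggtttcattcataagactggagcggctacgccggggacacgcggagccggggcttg
Egr2, chr10:67537620-67537919, plus strand: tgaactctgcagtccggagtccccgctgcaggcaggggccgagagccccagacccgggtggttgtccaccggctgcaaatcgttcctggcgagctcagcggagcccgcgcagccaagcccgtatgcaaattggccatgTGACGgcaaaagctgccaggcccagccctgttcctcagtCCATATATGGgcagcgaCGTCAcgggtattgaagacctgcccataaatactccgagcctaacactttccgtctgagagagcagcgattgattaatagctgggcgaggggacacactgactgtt
In the Fos window TGACG begins 129 and 66 bases before the start and TATAA 33 bases before it. In that of Fosb TGACG begins 60 bases before the start. Egr2 has 5 annotated starts. The window shown has a CArG box beginning 73 bases before the start, with TGACG or its complement beginning 112 and 56 bases before it. Of the 6 genes, 5 had TGACG or its complement in a window, 1, Egr2, a CArG box, and 3 TATAA. Jun had none of the 3 words. The TATAA counted for Egr2 lies in a window not shown. Over all 32851 promoter windows of this length, 20.8% held TGACG or its complement, 1.63% a CArG box and 17.5% TATAA. These shares are per single window, whereas the 6 genes were counted over 10 windows, of which Egr2 gave 5. A gene with more windows has more places for a match, so the counts and shares are not like for like. A match is a description of the letters only. Bases farther than 250 before a start were not searched, so a gene without a match here can have one farther upstream.

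The 10 genes have few exons and a short span, features that the choice by name did not use. All have 4 exons or fewer, with a single exon in Jun, Junb and Ier2, whereas the other genes of the table had a median of 8 exons in the same annotation. All 10, and 32.9% of the other genes, had 5 exons or fewer. From first to last exon the 10 genes span between 1522 bases in Ier2 and 13045 bases in Atf3, with a median of 3903 bases against 21146 for the other genes. Their transcripts were not shorter, with a median of 3010 bases against 2990.5. The median 3' UTR of the 10 genes was 1208 bases, against 1120 for the other genes. The AU-rich pentamer ATTTA, which is bound by decay factors such as tristetraprolin (Zfp36), is present in the 3' UTRs of 8 of them and absent in those of Ier2 and Arc, and 4983 of 15772 other genes also lack it. In number, 1 of the 10, Egr3, had 5 or more copies, against 22.0% of the other genes. Its density was 4.91 per kb in Fos, 4.12 in Junb and 3.24 in Jun, between 1.64 and 2.65 in Egr1, Egr2, Egr3 and Atf3, and 0.434 in Fosb, against a median of 1.26 per kb in the other genes. Genomic positions on GRCm38.p6 are chromosome 12 from 85473890 to 85477274 for Fos, chromosome 10 from 67534469 to 67542188 for Egr2 and chromosome 14 from 70077317 to 70082613 for Egr3. The antisense gene Junos overlaps the exon of Jun on the other strand, and since it is not known whether counting used strand, the counts of Jun are uncertain to that extent.

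**Figure D1:**
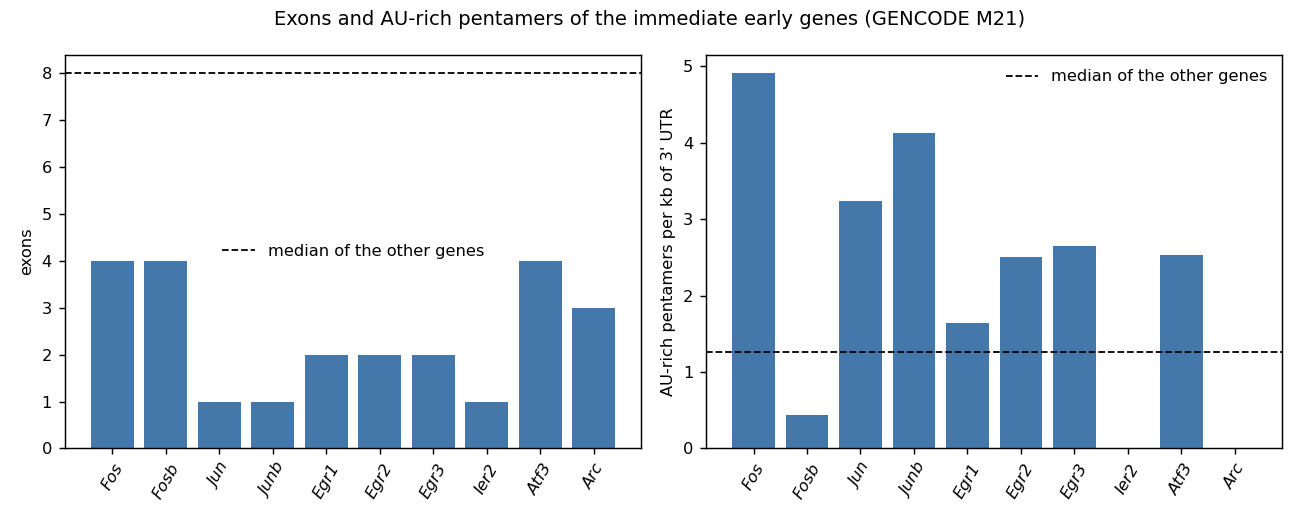
Exons (left) and AU-rich pentamers per kb of 3' UTR (right) of the 10 immediate early genes, as bars, with the median of 15772 other genes as a dashed line. All bars on the left lie below the line at 8 exons, and on the right 7 genes lie above 1.26 per kb while Ier2 and Arc are at 0.

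Total estimated counts were 18198033 for wild type, 17598763 for untransfected knockout, 19392655 for negative control and 18584404 for mimic cells. The cells were a mixture in every library. The 10 fibroblast markers, all detected, summed to 17028 TPM (the authors' length-scaled transcript share, with the same sum in each library) in the wild-type library and to between 7174 and 7878 TPM in the 3 knockout libraries. The 12 macrophage markers, also all detected, summed to 21847 TPM in the wild-type library and to between 30937 and 32103 TPM in the others. Lyz2 alone made up 14913 TPM of this sum in wild type and 18991 TPM in the untransfected knockout. The fibroblast sum likewise rests mostly on Col1a1, Col1a2 and Col3a1, at 5821, 5431 and 4128 TPM in wild type. The 12 markers of dividing cells (G2/M) summed to 147 TPM in the wild-type library and to between 307 and 362 TPM in the others. The 8 Schwann cell markers were at 346 TPM in the wild-type library and between 122 and 128 TPM in the others. The 6 endothelial markers summed to 4.49 TPM or less in each library, with Tie1 at 0 in the 3 knockout libraries. In bulk RNA fewer cells of a type and less RNA per cell cannot be told apart, and the part of this mixture in the values of immediate early genes was not tested.

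Per transcript length, the 10 genes together held 616.68 TPM in wild-type cells, 402.22 TPM in untransfected knockout cells, 448.6 TPM under the control siRNA and 503.1 TPM under the mimic. Egr1 was the most abundant in the wild-type library, followed by Junb, Jun, Ier2, Atf3, Fos, Egr2, Egr3, Arc and Fosb, and only the neighbours Ier2 and Atf3 had overlapping counting intervals. In the 3 knockout libraries Junb came first and Atf3 second, with overlapping intervals in the knockout and mimic libraries. Egr1 stood just below Jun in the knockout library, within counting error, and between Atf3 and Jun with the negative control and with the mimic. Fos and then Egr2 came next above Egr3 in every library. Fosb and Arc, at 3.07 TPM or less, were the least abundant in each of the 4, and lie near the limit of what this depth resolves.

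**Figure D2:**
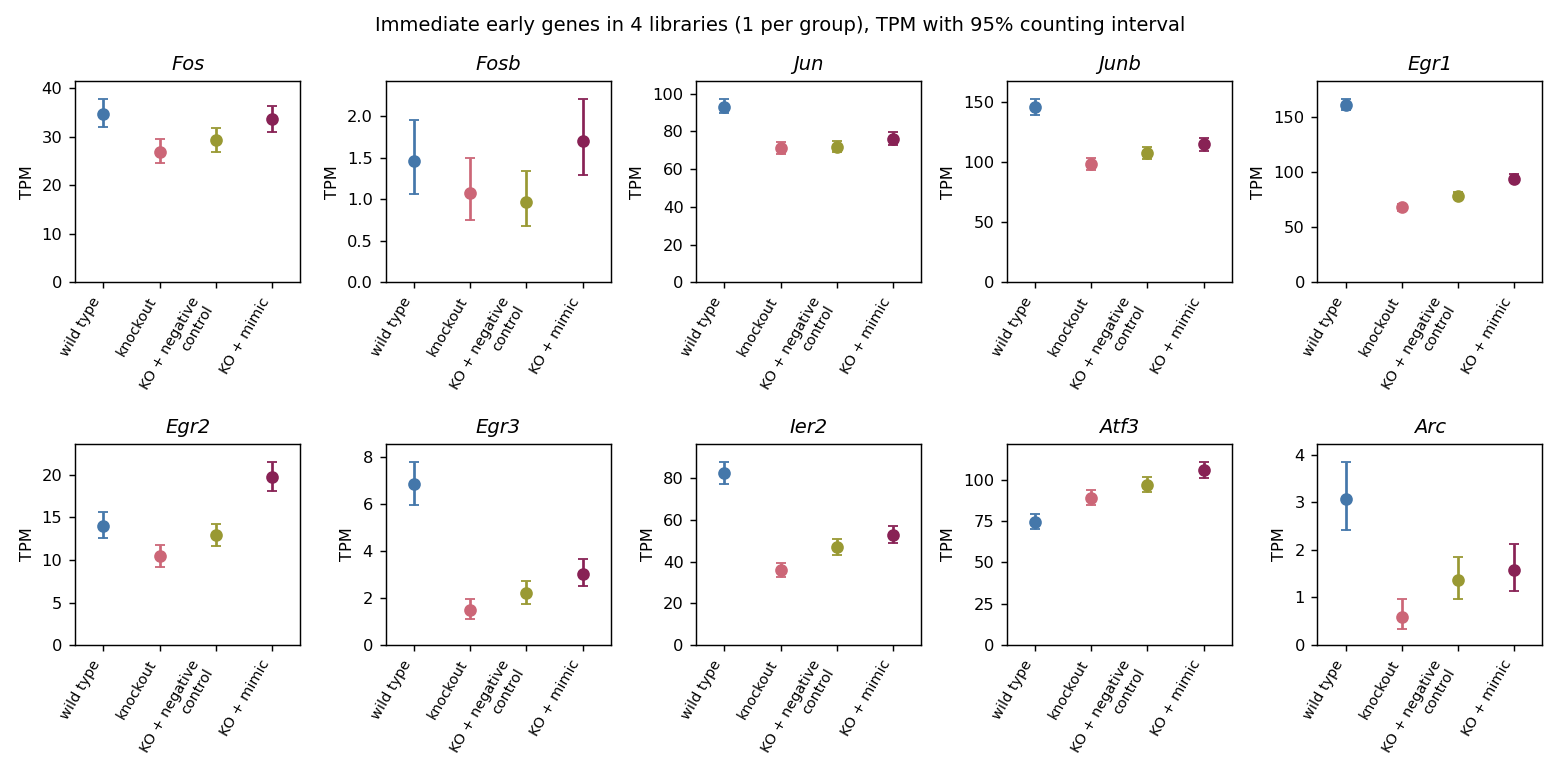
TPM of each immediate early gene (panels, linear axes from 0) in the 4 libraries, 1 per group, with 95% counting intervals. Egr1, Egr3, Ier2 and Arc stand highest in the wild-type library, Egr2 in the mimic library, and Atf3 lowest in the wild-type library.

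The first question was how the knockout library differed from the wild-type library. Of the 10 genes, 4 fell by 2-fold or more from wild type to knockout, with an interval that excludes 0, namely Egr1, Egr3, Ier2 and Arc, and none was 2-fold higher. With a minimum of 5 CPM the call of Arc is lost, since Arc reached 4.27 CPM, and 3 are left. Of all 12803 genes with at least 1 CPM (scaled count relative to library total) in at least 1 of the libraries compared, 7.0% were called lower and 5.91% higher by this rule. The intervals of 8 of the 10 lay below 0 and that of 1, Atf3, above 0, where the background shares are 30.3% and 32.6%. The median log2 ratio of the 10 was -0.37, beside 0.01 for all measured genes. Log2 ratios are of counts scaled by library with a prior of 1 count.

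Among the EGR factors, Egr1, which is induced by growth factors and by mechanical load, stood at 160.81 TPM in wild type, 67.96 TPM in the untransfected knockout, 78.45 TPM under the control siRNA and 94.16 TPM under the mimic. The wild-type library was alone at the top. From 4005 and 1839 counts the log2 ratio of knockout to wild type was -1.11 (-1.19 to -1.03), 2.16-fold lower. Egr3, a related factor best known from lymphocytes and neurons, stood at 6.85 TPM in wild type against 1.5, 2.2 and 3.04 TPM in knockout, control siRNA and mimic cells. Its log2 ratio was -2.05 (-2.52 to -1.63), 4.14-fold lower, from 228 and 54 counts, and ranked 222 from the lowest of the measured genes. Egr2, which controls myelination in Schwann cells and is also induced in macrophages, stood at 13.99 TPM in wild type and 10.41 TPM in knockout, for a log2 ratio of -0.29 (-0.52 to -0.05). Beside it, 6 of 7 measured Schwann cell markers were called lower and 7 of 12 macrophage markers higher, where 7.0% and 5.91% of all genes were. The part of these markers' cells in the value of Egr2 was not tested.

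These differences between EGR genes do not depend on how libraries are scaled, since they can be read within a library. Of the counts of the 3 EGR genes, Egr1 took 87.7% (86.7 to 88.7, exact binomial) in wild type and 80.4% (79.0 to 81.8) under the mimic. The share of Egr3 was 4.99% (4.38 to 5.67) in wild type and 2.5% (1.88 to 3.24) in the knockout, and that of Egr2 7.29% (6.56 to 8.09) in wild type, 12.5% in the knockout and 16.1% (14.9 to 17.4) under the mimic. Egr3 counts were 0.685 times those of Egr2 in wild type and 0.199 times in knockout, a log2 change of -1.78 (-2.30 to -1.28). With the negative control and the mimic this quotient stayed near that of the knockout, at 0.235 and 0.214.

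**Figure D3:**
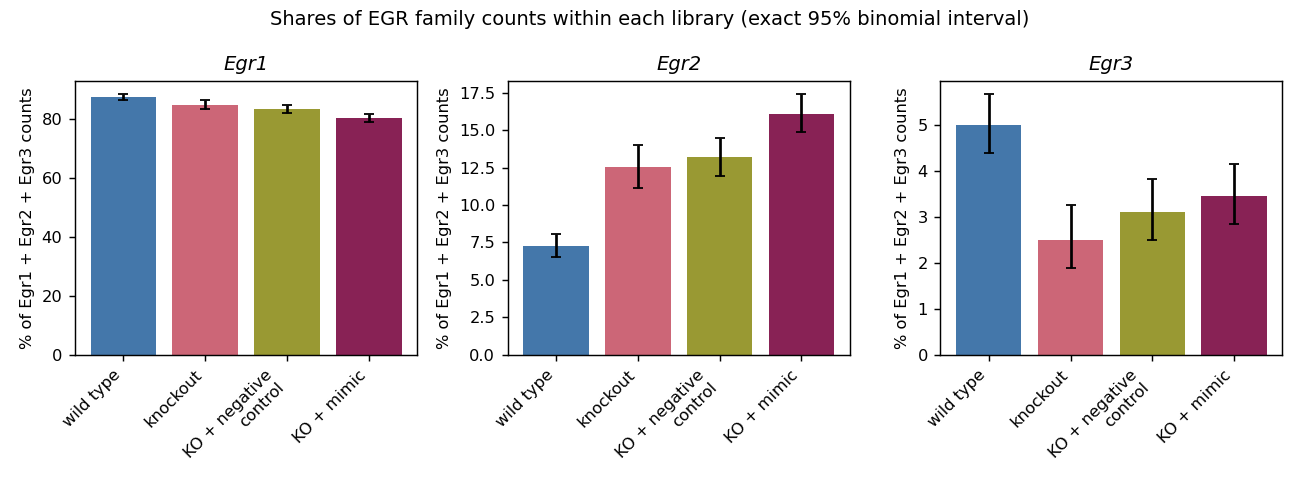
Shares of Egr1, Egr2 and Egr3 in their summed counts (percent) in each library, 1 library per bar, with exact 95% binomial intervals. The share of Egr2 is lowest in the wild-type library, at 7.29%, and highest in the mimic library, at 16.1%, and that of Egr3 is highest in the wild-type library.

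Among the AP-1 subunits, none of which was called, Fos, the inducible partner, stood at 34.67 TPM in wild type, 26.87 TPM in knockout, 29.25 TPM under the control siRNA and 33.58 TPM under the mimic. Untransfected knockout cells were lowest and wild-type and mimic cells nearly level. Its ratio of knockout to wild type was -0.23 (-0.41 to -0.06). Fosb, its relative, known for a long-lived splice form in neurons, had 1.46, 1.08, 0.97 and 1.7 TPM in the same order. From 45 and 36 counts its interval held 0, with a ratio of -0.30 (-0.99 to 0.35).

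Jun, the partner of Fos that is phosphorylated by JNK, stood at 93.21, 71.0, 71.84 and 76.19 TPM in wild-type, knockout, control siRNA and mimic cells. The 3 knockout libraries lay close together and below the wild type, with a ratio of -0.26 (-0.35 to -0.18) for the untransfected pair. Junb, which restrains Jun in many settings, had 145.59, 98.02, 107.69 and 114.78 TPM and a ratio of -0.44 (-0.53 to -0.34). Fos stood to Jun as 0.236 to 1 in counts in wild type and 0.24 to 1 in knockout, a log2 change of 0.03 (-0.17 to 0.23). Egr1, in contrast, stood to Jun as 1.66 to 1 and 0.92 to 1, a log2 change of -0.85 (-0.97 to -0.73).

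Atf3, a bZIP repressor induced by stress, was the 1 gene of the 10 above 0 in this comparison. It stood at 74.7 TPM in wild type, 88.97 TPM in knockout, 96.94 TPM under the control siRNA and 105.64 TPM under the mimic. All 3 knockout libraries stood above the wild type, and the ratio of knockout to wild type was 0.39 (0.27 to 0.50), short of 2-fold. Its count was 0.471 times that of Jun in wild type and 0.739 times in knockout, a log2 change of 0.65 (0.51 to 0.79). Genes of the integrated stress response, which are often induced beside Atf3, had a median log2 ratio of -0.14. None of 8 was at 2-fold, where 7.0% of all genes were called lower and 5.91% higher. Chac1, a glutathione-degrading enzyme, was at 0.21 (0.01 to 0.41) and the kinase-like protein Trib3 at -0.42 (-0.58 to -0.27).

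Ier2, a nuclear protein induced by serum, and Arc, best known as a synaptic protein of neurons, were the other 2 genes called. Ier2 stood at 82.33 TPM in wild type, 35.82 TPM in knockout, 47.02 TPM under the control siRNA and 52.73 TPM under the mimic. Wild type was again highest, with a counting interval above all the others. Its ratio of knockout to wild type was -1.06 (-1.23 to -0.90), 2.09-fold lower. Arc was counted 76 times in wild type, 16 in knockout, 40 under the control siRNA and 43 under the mimic, or 3.07, 0.59, 1.36 and 1.57 TPM. The wild-type value was the highest and the untransfected knockout value the lowest. The ratio of -2.17 (-3.11 to -1.45), 4.5-fold lower, rests on few reads.

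**Figure D4:**
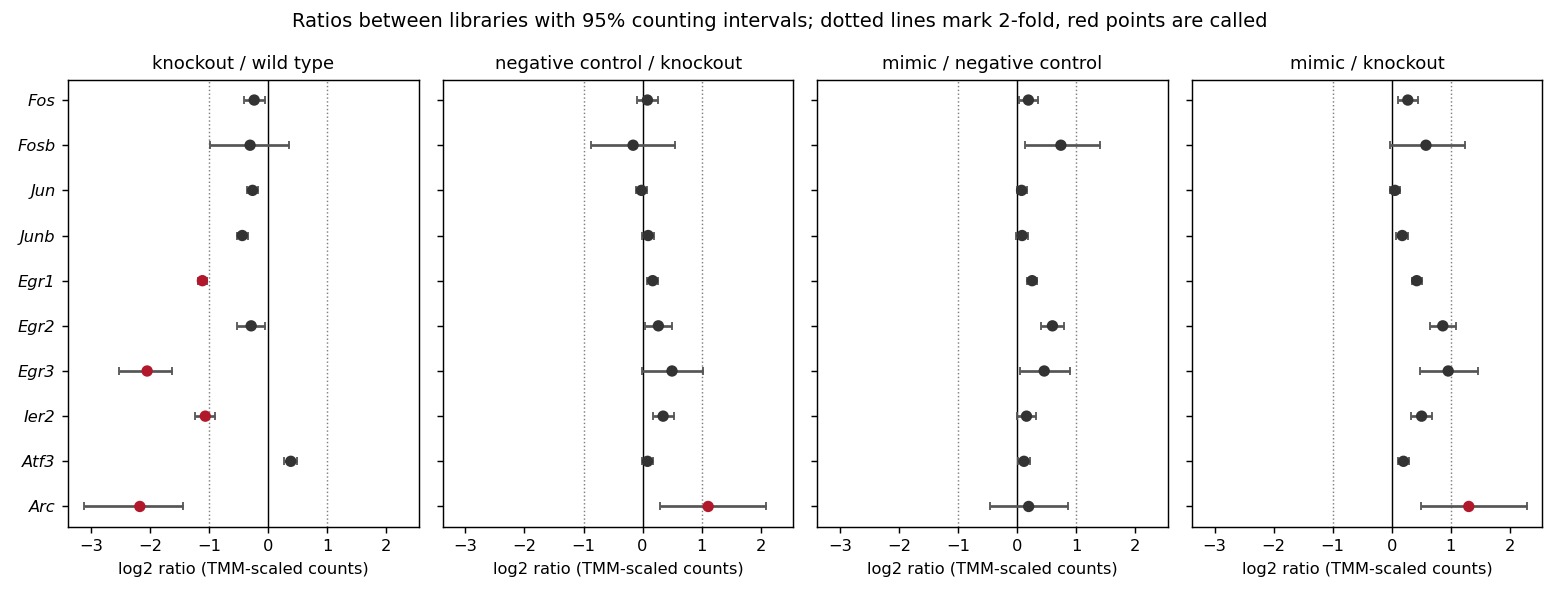
Log2 ratios of the 10 immediate early genes in 4 comparisons of single libraries, with 95% counting intervals, dotted lines at 2-fold and red points for genes called. Egr1, Egr3, Ier2 and Arc are called lower in knockout against wild type, Arc is called higher in the negative-control and mimic libraries against the knockout, and all 10 points lie above 0 in both mimic panels.

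The second question was what transfection with the negative control did to knockout cells. This comparison shares the knockout library with the first, so opposite shifts between these comparisons are not independent. Of the 10 genes, 8 lay above 0, or 9 with total-count or TPM scaling, where Jun passes to the other side, with a median log2 ratio of 0.13 beside 0.00 for all genes. Only Arc was at least 2-fold higher, at 1.11 (0.29 to 2.09) from 40 and 16 counts, and none was lower. The background shares were 0.295% higher and 0.718% lower. The call of Arc is lost with a minimum of 5 CPM, which Arc does not reach, or with a prior of 5 counts. The intervals of 4 genes lay above 0 and those of none below, where 16.4% and 17.0% of genes did so. Ier2 stood at 0.35 (0.17 to 0.53), Egr2 at 0.27 (0.04 to 0.50) and Egr1 at 0.17 (0.08 to 0.26). Egr3 was at 0.50, with an interval from -0.00 to 1.03. Jun, at -0.02 (-0.11 to 0.07), and Fosb, at -0.16 (-0.87 to 0.54), were the 2 genes below 0.

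The third question was how the mimic library differed from the negative-control library. All 10 genes lay above 0 with a median log2 ratio of 0.19, beside -0.01 for all genes, and none reached 2-fold in either direction, where 0.855% of all genes were called higher and 0.352% lower. The intervals of 6 genes lay above 0 and those of none below, against background shares of 19.1% and 18.8%. Egr2 had 19.71 TPM in the mimic library and 12.88 TPM in the negative-control library, a ratio of 0.60 (0.40 to 0.80) or 1.51-fold, from 519 and 366 counts. Its mimic library also stood above wild type, at 0.58 (0.38 to 0.79). Fosb stood at 0.74 (0.13 to 1.40) from 57 and 36 counts, Egr3 at 0.46 (0.05 to 0.89), Egr1 at 0.25 (0.17 to 0.34), Fos at 0.19 (0.02 to 0.36) and Atf3 at 0.12 (0.02 to 0.21). The intervals of Jun, Junb, Ier2 and Arc held 0.

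The quotients within a library again set Egr2 apart from Egr1. Per length, Egr1 was 11.5 times Egr2 in TPM in wild type, 6.53 times in knockout, 6.09 times under the control siRNA and 4.78 times under the mimic. From control siRNA to mimic the quotient of their counts changed by -0.35 (-0.56 to -0.13) on the log2 scale. The quotient of Junb to Jun counts was 0.811 and 0.817 in the same libraries, a log2 change of 0.01 (-0.12 to 0.14).

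Against the untransfected knockout library, which shares the mimic library with the comparison above and the knockout library with the first, the mimic gave a median log2 ratio of 0.47 beside 0.00 for all genes. All 10 genes again lay above 0, and the intervals of 8 lay above 0 and those of none below, where 17.3% and 17.4% of genes did so. Arc was called higher, at 1.31 (0.50 to 2.29), where 0.263% of genes were called higher and 0.471% lower. Higher calls were 35.9% of all calls here and 47.7% on TPM. The call of Arc is also lost with a minimum of 5 CPM. Egr3 stood at 0.96 (0.49 to 1.47), Egr2 at 0.87 (0.65 to 1.09), Ier2 at 0.51 (0.33 to 0.69) and Egr1 at 0.43 (0.34 to 0.51). Jun, at 0.06 (-0.03 to 0.15), and Fosb, at 0.58 (-0.03 to 1.24), had intervals that held 0.

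Set against the wild-type library, the mimic library had intervals below 0 for Egr1, Egr3, Ier2, Arc, Jun and Junb and above 0 for Egr2 and Atf3, where 30.3% and 33.1% of genes lay so. The median of the 10 was -0.23, beside 0.02 for all genes. Egr3 alone was called, at -1.09 (-1.44 to -0.76), where 7.69% of genes were called lower and 5.82% higher. Egr1 stood at -0.69 (-0.76 to -0.61), Ier2 at -0.55 (-0.70 to -0.41) and Arc at -0.86 (-1.45 to -0.32). Fos, at 0.04 (-0.13 to 0.21) but below 0 on TPM, and Fosb, at 0.28 (-0.31 to 0.88), had intervals that held 0.

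The other AP-1 proteins were compared as a list. Of 9 measured between knockout and wild type none was called, where 7.0% of all genes were called lower and 5.91% higher. A list of 9 is too short to set it apart from those shares. The median log2 ratio of the 9 was -0.40. Fosl2, a Fos relative that is abundant in fibroblasts, stood at 124 TPM in wild type and 60.9 TPM in knockout, for a ratio of -0.89 (-0.96 to -0.83). On TPM the difference of Fosl2 is just over 2-fold, so whether it is called can change with the scaling. Maff, a small MAF protein, stood at 0.99 (0.76 to 1.23), also close to the 2-fold line, and Atf7 at -0.69 (-0.79 to -0.59). Fosl1, another Fos relative, stood at 0.73 (0.45 to 1.02) between negative control and untransfected knockout, short of 2-fold. Nab2, a corepressor that EGR proteins induce, had a ratio of knockout to wild type of -0.29 (-0.38 to -0.19). Its relative Nab1 was at -0.01 (-0.11 to 0.10) there and at -0.60 (-0.71 to -0.49) between mimic and negative control.

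Of 34 further immediate early genes measured between knockout and wild type, 2 were called lower and 1 higher, where the shares of all genes are 7.0% and 5.91%. Of the 34, 20 lay below 0 and 14 above, and the median was -0.22. Gem, a small GTPase, stood at -1.31 (-1.72 to -0.93). The nuclear receptor Nr4a1 went from 253 to 125 counts, with an interval from -1.33 to -0.69. It lay close to the 2-fold line, so its call can change with the scaling. Ptgs2, which encodes cyclooxygenase-2 and is also induced in macrophages, was higher, at 1.22 (0.99 to 1.46). Between mimic and negative control 24 of 34 lay above 0 with a median of 0.14. Klf4, a zinc finger factor, stood at 0.66 (0.54 to 0.77) without reaching 2-fold. Npas4, a neuronal factor, was the 1 gene called, at 1.39 (0.71 to 2.20) from 58 and 23 counts, but its deposited TPM was 0.44 in both libraries. Of all genes, 0.855% were called higher and 0.352% lower between mimic and negative control.

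Genes that switch immediate early genes on were compared as a list. Between knockout and wild type the 15 genes of the ERK and serum response list had a median log2 ratio of 0.02, with Rps6ka1, a kinase below ERK that blood cells express highly, called higher at 1.39 (1.26 to 1.53), Elk1 at -0.42 (-0.57 to -0.27) and Braf at -0.36 (-0.49 to -0.23). In the mimic library Srf, the serum response factor, stood at 0.35 (0.22 to 0.48) and its partner Elk4 at 0.32 (0.11 to 0.52) against the negative control. Of 9 genes that dampen ERK signalling 2 were called lower and 1 higher between knockout and wild type, with a median of 0.12. These are few calls to set against the shares of 7.0% and 5.91% among all genes. The lower genes were the phosphatase Dusp5, at -1.21 (-1.57 to -0.88), and Spry2, at -1.19 (-1.43 to -0.95), and the higher was the phosphatase Dusp4, at 1.17 (1.00 to 1.35). In the list of JNK and p38 kinases 1 of 11 was called lower, against the same 7.0%, namely Mapk12 at -1.39 (-1.91 to -0.92), a p38 kinase of skeletal muscle, and the median was 0.08.

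Of 14 genes with known AP-1 control, 2 were called lower and 1 higher between knockout and wild type, where 7.0% and 5.91% of all genes were. Of the 14, 10 lay above 0, and the median was 0.28. The intervals of 8 lay above 0 and those of 4 below, where 32.6% and 30.3% of all genes did so. The lower genes were the proteases Mmp9, at -3.90 (-4.48 to -3.45), and Mmp13, at -3.70 (-3.87 to -3.55). The stromelysin Mmp3 was higher, at 1.63 (1.52 to 1.73), and was lower after the negative control than in untransfected knockout cells, at -1.19 (-1.28 to -1.10). It was also lower after the mimic than in untransfected knockout cells, at -1.05 (-1.14 to -0.97). Of all genes, 0.718% were called lower for negative control against knockout and 0.471% for mimic against knockout. Between mimic and negative control none of 14 was called, where 0.855% of all genes were called higher and 0.352% lower. Mmp9 stood there at -0.78 (-1.76 to 0.08) and the cytokine Il6 at -0.64 (-1.08 to -0.23). Heat shock genes, which are induced together with immediate early genes when cells are handled, had a median of 0.02 between knockout and wild type with none of 9 called, and Hspa1a at -0.87 (-1.37 to -0.41), a gene with a near-identical copy in Hspa1b whose value is uncertain.

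**Figure D5:**
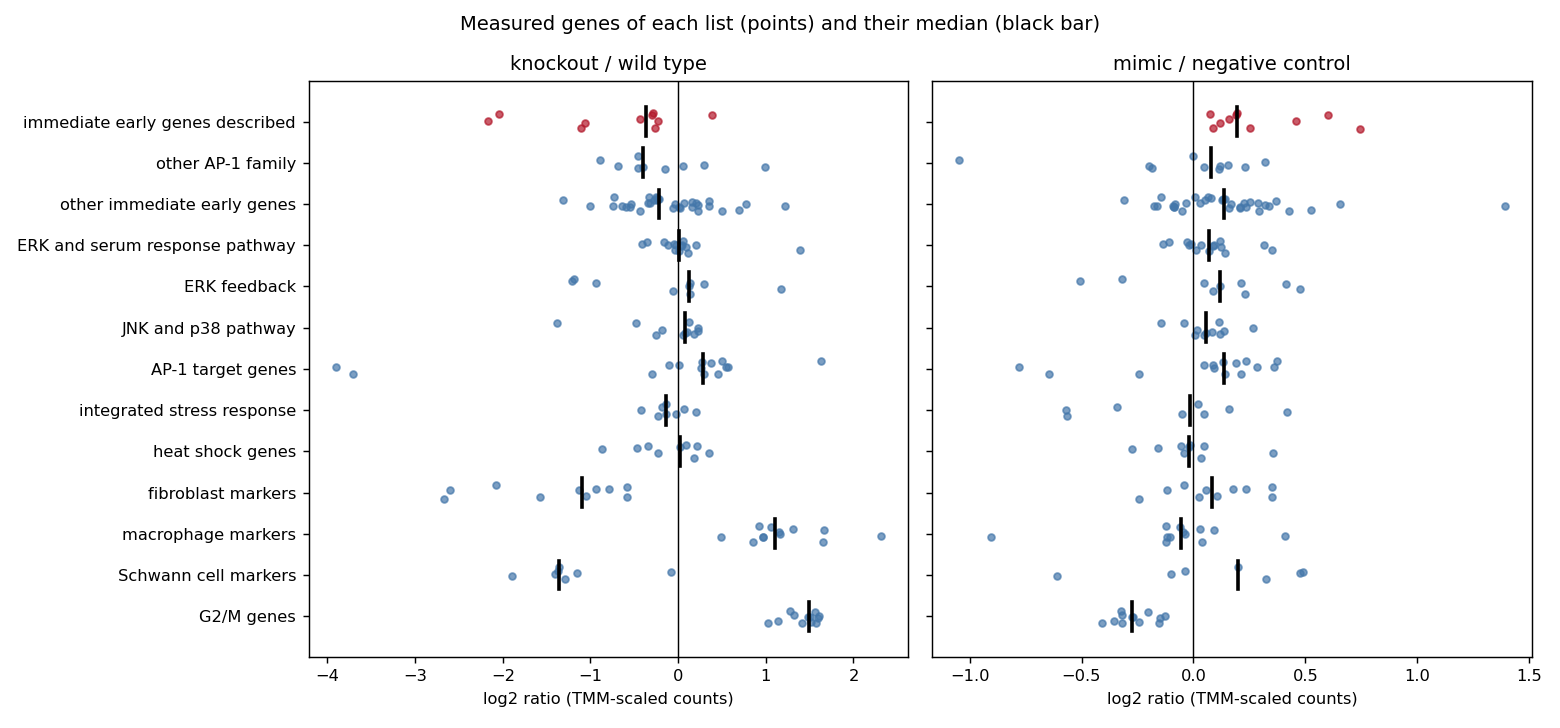
Log2 ratios of the measured genes of each list with more than 2 of them (points) with the list's median (black bar), between knockout and wild type (left) and between mimic and negative control (right). The immediate early genes in red lie mostly below 0 on the left, with a median of -0.37, and above 0 on the right, with a median of 0.19, while fibroblast, macrophage and G2/M markers stand farther from 0 on the left.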

How the data were processed

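RNA of 4 cultures, 1 per group, was sequenced, and groups were taken from the labels. Tools (Bowtie2, FastQC, HISAT) and builds (GRCm38.p6, mm10) are listed without roles in the submitters' processing notes. Which tool quantified the genes, on which annotation and with or without strand, is a point not given in the sources used here. Per the file headers, the authors deposited estimated counts, not scaled by library size, and TPM, which have 1 common sum. The authors also deposited FPKM, a normalized count signal, and log2 ratios with p-values from PoissonDis per the file headers, of which only the log2 ratios are quoted.

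Counts were scaled with edgeR TMM factors (0.978 for wild type, 1.00 for knockout, 1.02 for negative control, 0.997 for mimic). Log2 ratios used a prior of 1 count. A gene counted as measured from 1 CPM in at least 1 of the libraries compared, and was called at 2-fold or more with an exact conditional binomial (Clopper-Pearson) 95% interval that excludes 0. Estimated counts were rounded for intervals. TPM intervals are exact Poisson intervals of the count. Intervals of quotients of 2 genes are exact and conditional. The procedure was run on simulated Poisson counts, the model that the intervals assume. This checks the calculation only, since the simulation held no variation between cultures or libraries. Spreadsheet dates in place of 26 symbols were restored by Entrez identifier, and 16369 identifiers matched RefSeq. 3' UTRs came from GENCODE M21, the longest per gene.

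The 10 genes and the 14 further lists were chosen with earlier results of these data known. Genes named beside the 10 were the 3 largest absolute ratios per list for knockout against wild type, the 2 largest for mimic against negative control and for negative control against knockout, and the 6 most alike in pattern. Not all genes named by this rule are described. Fits ran in R 4.3.3 (edgeR 4.0.16; DESeq2 1.42.0, for an alternative), intervals in scipy 1.17.1 under Python 3.11.15, and plots in matplotlib 3.10.9.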

Additional observations from a re-analysis of the deposited data

How the results depend on the processing

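Every number rests on 1 library per group, so culture, mouse and library effects cannot be told apart from genotype or transfection. No paired analysis was possible because each group has a single library. The alternatives were total-count scaling, DESeq2 size factors, deposited TPM, no filter, a minimum of 5 CPM, and priors of 0.25 and 5 counts. The members' medians ranged from -0.50 to -0.33 for knockout against wild type, 0.09 to 0.17 for negative control against knockout, 0.16 to 0.20 for mimic against negative control, 0.35 to 0.51 for mimic against knockout and -0.32 to -0.20 for mimic against wild type. The number called higher fell from 1 to 0 for negative control against knockout with a minimum of 5 CPM and with a prior of 5, and from 1 to 0 for mimic against knockout with a minimum of 5 CPM, since Arc is below that level or is drawn toward 0. For knockout against wild type 4 were called lower, or 3 with a minimum of 5 CPM, which leaves out Arc. Of the single ratios 6 of 50 moved beyond their interval on TPM, where the median of all genes is -0.11 for knockout against wild type, and none of those measured did under the other 6 alternatives, which gave 50 values each except for 39 with a minimum of 5 CPM. Among all genes, 5 CPM left 556 higher and 556 lower for knockout against wild type (757 and 896 at 1 CPM), 5 and 33 for negative control against knockout (37 and 90), 43 and 10 for mimic against negative control (107 and 44), 3 and 9 for mimic against knockout (33 and 59), and 543 and 610 for mimic against wild type (744 and 984). Without a filter the counts were 74 and 136, 140 and 82, and 69 and 90 for the middle 3 comparisons, and with a prior of 5 counts 16 and 66, 88 and 24, and 23 and 34. On TPM 47.7% of calls for mimic against knockout were higher, against 35.9%.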

Other observations

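Among 9302 other genes with a mean of at least 10 CPM, those whose pattern over the 4 libraries was most like the mean pattern of the 7 immediate early genes at that level were Mlxip, Slc16a1, Sertad2, Slc25a22, Pdlim7 and Fam220a. The mean pattern was 0.20 in wild type, -0.23 in the knockout, -0.09 with the negative control and 0.13 with the mimic, in log2 CPM centred on each gene's own mean. The root mean square difference from it lay between 0.0236 for Mlxip, a glucose-sensing factor, and 0.0321 for Fam220a. Pdlim7, a cytoskeletal adaptor, had 86.7, 63.7, 72.5 and 80.4 TPM in the same order, and Sertad2, a transcriptional coregulator, 23.1, 16.2, 17.7 and 21.4 TPM. Among the immediate early genes themselves Fos and Junb lay nearest to the mean pattern, at 0.0705 and 0.0744, and Arc and Egr3 farthest, at 0.617 and 0.602. These are likenesses over 4 libraries, 3 of which share the knockout genotype, and they carry no test.

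In the authors' deposited table the log2 ratios of the 10 genes equal those of unscaled counts. For negative control against knockout they are therefore higher than the scaled values by 0.16 to 0.21, with Fos at 0.25 in the authors' deposited table and 0.08 here. For mimic against negative control the authors' deposited table gives Jun as -0.02 and Junb as -0.01, where the scaled ratios are 0.08 and 0.09.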
